A study of Mus musculus with 2 samples.

Results

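Lysosomal genes were followed here through the non-cardiomyocyte cells of the mouse heart. The module holds 35 genes listed by symbol, which encode cathepsins, other lysosomal hydrolases, lysosomal membrane and lipid transport proteins and subunits of the proton pump, and all 35 were among the 22441 gene symbols of both count matrices. The list was drawn up by function, with earlier results of these data known. Hearts of mice that overexpress adenylyl cyclase type 8 (AC8), which the series title describes as specific to cardiomyocytes, were set against hearts of wild-type littermates (WT), both of strain C57/B6 and without treatment. For each genotype, hearts of pooled mice gave a cell suspension that was sorted into leukocytes (CD45+CD31-), mesenchymal cells (CD45-CD31-) and endothelial cells (CD45-CD31+), and equal numbers of the 3 fractions went into 1 droplet library. The sources used here do not give the number, age and sex of the pooled mice or the promoter of the transgene. Cell numbers between classes therefore reflect the mixture, and values within a class are the ones compared below. Since each genotype has 1 library, differences between them lack replicates and carry no p-value, and the 95% intervals cover counting error only.

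The AC8 library held 4867 cells with a median of 1832 unique molecular identifiers (UMIs, counted molecules), and the WT library held 5800 cells with a median of 1344. After filters on depth and mitochondrial share and removal of likely doublets, 3578 AC8 and 3546 WT cells remained, with medians of 2323 and 1884 UMIs. They formed 19 clusters and 10 classes named from marker genes. The macrophage-like class held 720 AC8 and 581 WT cells, the fibroblast-like class 1535 and 1899, the endothelial-like class 571 and 622, and the B cell-like class 294 and 113. Adcy8, the overexpressed gene, was not seen: its count of 0 UMIs among kept cells leaves room for 0.314 counts per 1000000 UMIs (CPM) in AC8 and 0.4004 CPM in WT, so it does not check the genotype labels in these cells. Levels below are CPM, the UMIs of a gene per 1000000 UMIs summed over the cells of a class. Because the classes were deduced anew from the counts, they may differ from the cell types of the study's own annotation.

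Lysosomes are acidic organelles in which proteins, lipids and sugars taken up by the cell or delivered by autophagy are degraded. A V-type ATPase pumps protons into the lumen, the acidic lumen activates cathepsins and other hydrolases, and membrane proteins such as LAMP1 and LAMP2 line the organelle and protect it. Macrophages are rich in lysosomes because they ingest dying cells and debris, and fibroblasts use them, among other tasks, to degrade internalised collagen. Many lysosomal genes carry an E-box-like element in their promoters, often called the CLEAR element, to which the transcription factors TFEB, TFE3 and MITF can bind.

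The promoters of the module were searched for the core of that element, TCACGTGA, and for the shorter E-box CACGTG it contains, both of which read the same on either strand. RefSeq promoter windows (GRCm38.p6, 250 bases before to 50 bases after the annotated start) were found for 29 of the 35 genes. TCACGTGA lay in 6 of the 29 (20.7%), against 304 of 27025 genes with such a window (1.12%), and CACGTG, which counts those 6 again, lay in 10 of the 29 (34.5%), against 8.09% of all genes. The 6 windows are shown around their element, on the gene's strand, because they include Ctsd and Atp6v0d1, which the results below return to. The capitals mark TCACGTGA, with 11 bases on either side.
Ctsd, chr7:142387908-142387937, minus strand: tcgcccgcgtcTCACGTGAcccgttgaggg
Atp6v0d1, chr8:105566050-105566079, minus strand: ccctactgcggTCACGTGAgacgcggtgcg
Atp6v1a, chr16:44139373-44139402, minus strand: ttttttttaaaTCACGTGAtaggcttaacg
Ctsa, chr2:164833749-164833778, plus strand: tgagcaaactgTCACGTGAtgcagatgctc
Mcoln1, chr8:3500462-3500491, plus strand: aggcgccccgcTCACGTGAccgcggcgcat
Gla, chrX:134601215-134601244, minus strand: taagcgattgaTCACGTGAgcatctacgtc
The element began 4 bases before the annotated start in Atp6v0d1, 13 in Ctsa, 46 in Mcoln1, 99 in Ctsd, 132 in Atp6v1a and 228 in Gla. The windows of Ctsa and Gla each hold 2 copies, of which the more upstream one is shown. Outside the element the 6 stretches differ in letters. A match describes these letters only and shows no binding.

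Most genes of the module were highest in a myeloid class. In the AC8 library 27 of the 35 genes, and in the WT library 24, reached their highest level in macrophage-like, monocyte-like or dendritic cell-like cells. The same share over all genes was not counted. Macrophage-like cells had the highest level of 21 genes in AC8 and of 14 in WT, although the interval stood clear of the next class for only 12 and 7 of them. Many of these orders are therefore not settled by the counts. Ctsa, for example, the carboxypeptidase also called protective protein, was 1.14-fold higher in macrophage-like than in monocyte-like cells of AC8 with overlapping intervals. Ctsd was highest in macrophage-like cells of AC8 but in natural killer cell-like cells of WT. In WT its natural killer cell-like level was 1.47-fold the macrophage-like level, with overlapping intervals.

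Levels in macrophage-like cells were more than 10 times those in fibroblast-like cells, in both libraries, for 5 genes. Ctss, the cathepsin that trims the MHC class II invariant chain, stood at 2372 CPM in AC8 and 1436 CPM in WT macrophage-like cells, whereas fibroblast-like cells had 7.73 and 7.77 CPM. Ctsc, which activates serine proteases of granules, Cd68, a macrophage lysosomal glycoprotein, Laptm5, a leukocyte lysosomal membrane protein, and Lgmn, the asparaginyl endopeptidase legumain, were the other 4. With each cell thinned to 1000 UMIs, Ctss was seen in 77.8% of AC8 and 70.9% of WT macrophage-like cells. At full depth, with medians of 3207 and 1998 UMIs, it was seen in 95.4% and 88.1% of them. Of fibroblast-like cells 1.498% in AC8 and 0.685% in WT had it after thinning. At full depth, with medians of 2739 and 2161 UMIs, these shares were 2.02% and 1.37%. The part of free RNA in these low shares was not tested.

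For 5 other genes fibroblast-like cells stood above macrophage-like cells in both libraries. Ctsk, the collagen-degrading cathepsin K, reached 100 CPM in AC8 and 73.6 CPM in WT fibroblast-like cells, against 7.62 and 0.743 CPM in macrophage-like cells (20 UMIs and 1 UMI). Ctsl, an endopeptidase of broad specificity, stood at 1154 and 1089 CPM in the fibroblast-like class, against 377 and 229 CPM in the macrophage-like class, and the tetraspanin Cd63 at 1148 and 1038 CPM against 661 and 427 CPM. Scarb2, the receptor that carries glucocerebrosidase to the lysosome, and Laptm4a followed the same order, but both were highest in other non-immune classes, Scarb2 in Schwann-like cells of either library. Atp6v0d2, a pump subunit known from osteoclasts and macrophages, had 41 UMIs in AC8 and 3 in WT macrophage-like cells, 1 UMI in AC8 dendritic cell-like cells and none in any other class, where a count of 0 in fibroblast-like cells allows up to 0.682 CPM in AC8 and 0.686 CPM in WT.

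**Figure D1:**
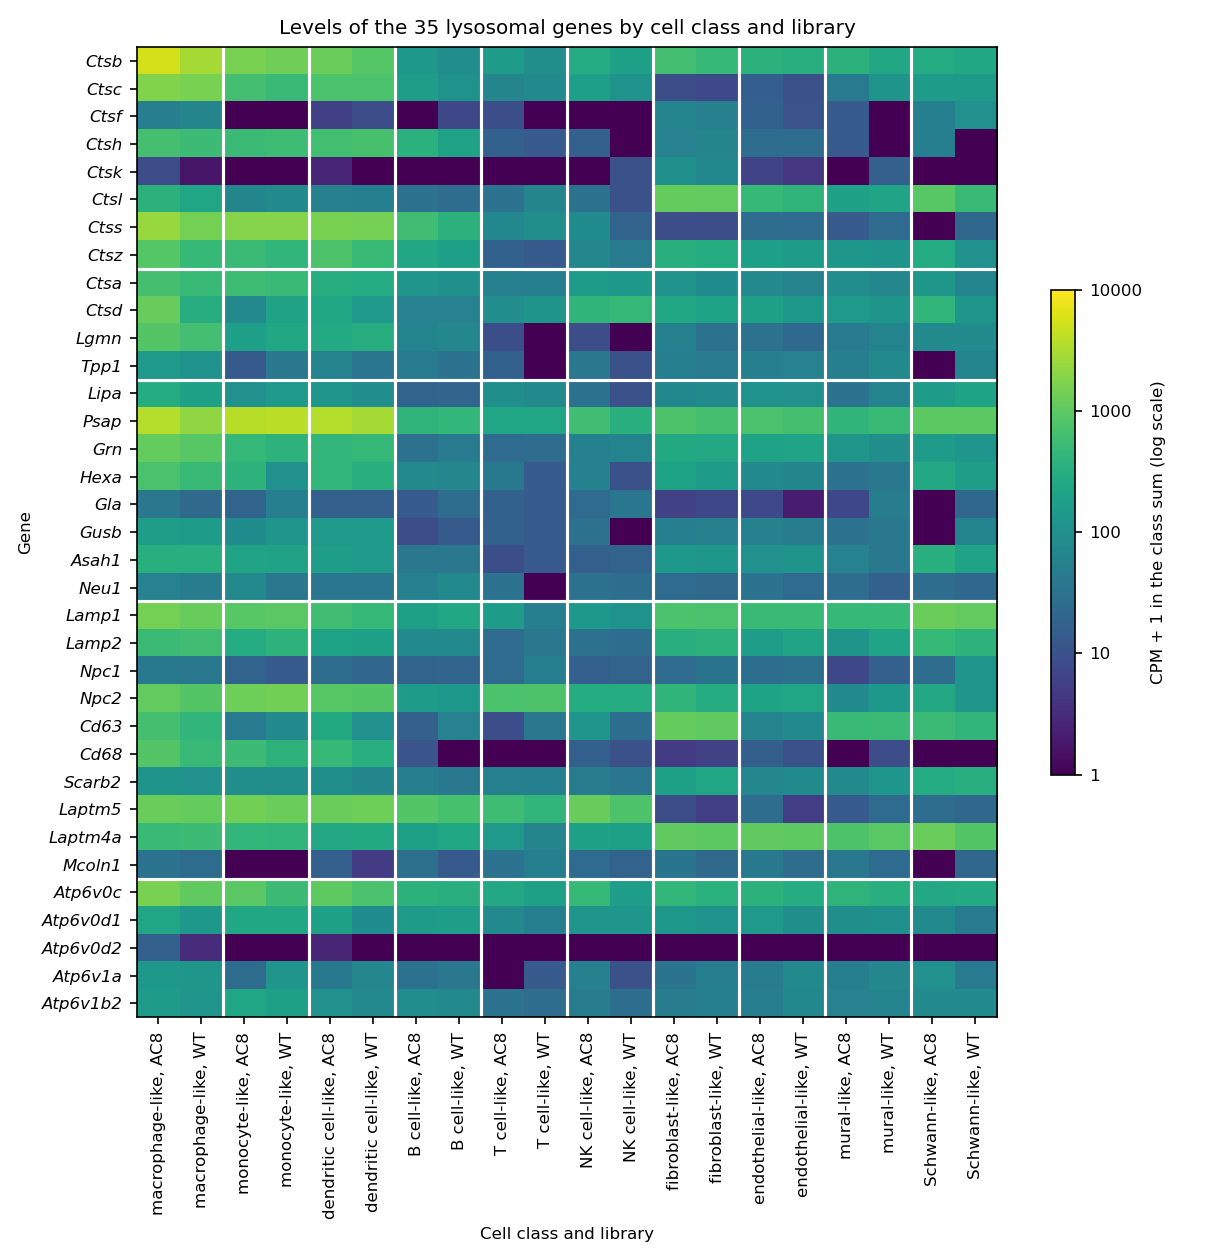
Level of each of the 35 genes (rows, grouped as papain-type cathepsins, other proteases, lipid and sugar hydrolases and helpers, membrane and lipid transport proteins, and pump subunits) in each cell class, AC8 left of WT, as CPM + 1 on a logarithmic colour scale. Ctss, Ctsc, Cd68 and Laptm5 are bright in the myeloid classes and dark in fibroblast-like cells, while Ctsk, Ctsl and Cd63 are brightest in fibroblast-like cells.

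Summed over the module, the 35 genes made up 2.94% of all UMIs of AC8 macrophage-like cells and 1.998% of those of WT macrophage-like cells, a ratio of 1.47 (1.45 to 1.49). The share over single cells had a median of 2.38% in AC8 and 1.80% in WT. In no other class with over 100 cells in each library was the ratio as high: it was 1.15 (1.05 to 1.26) in B cell-like cells, with shares of 0.473% and 0.411%, 1.11 (1.09 to 1.13) in fibroblast-like cells, with 0.899% and 0.810%, and 1.07 (1.03 to 1.11) in endothelial-like cells, with 0.558% and 0.523%. Among the small classes, the 62 AC8 and 66 WT natural killer cell-like cells had 0.491% and 0.330%, a ratio of 1.49 (1.31 to 1.70) that rests on 620 and 370 UMIs, and the 151 and 77 dendritic cell-like cells had 1.63% and 1.38%, a ratio of 1.19 (1.14 to 1.23). The 22 and 31 Schwann-like cells had 0.892% and 0.708%, a ratio of 1.26 (1.08 to 1.47). Monocyte-like (1.75% and 1.68%), T cell-like (0.314% and 0.272%) and mural-like cells (0.453% and 0.4998%) had ratios whose intervals span 1.

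**Figure D2:**
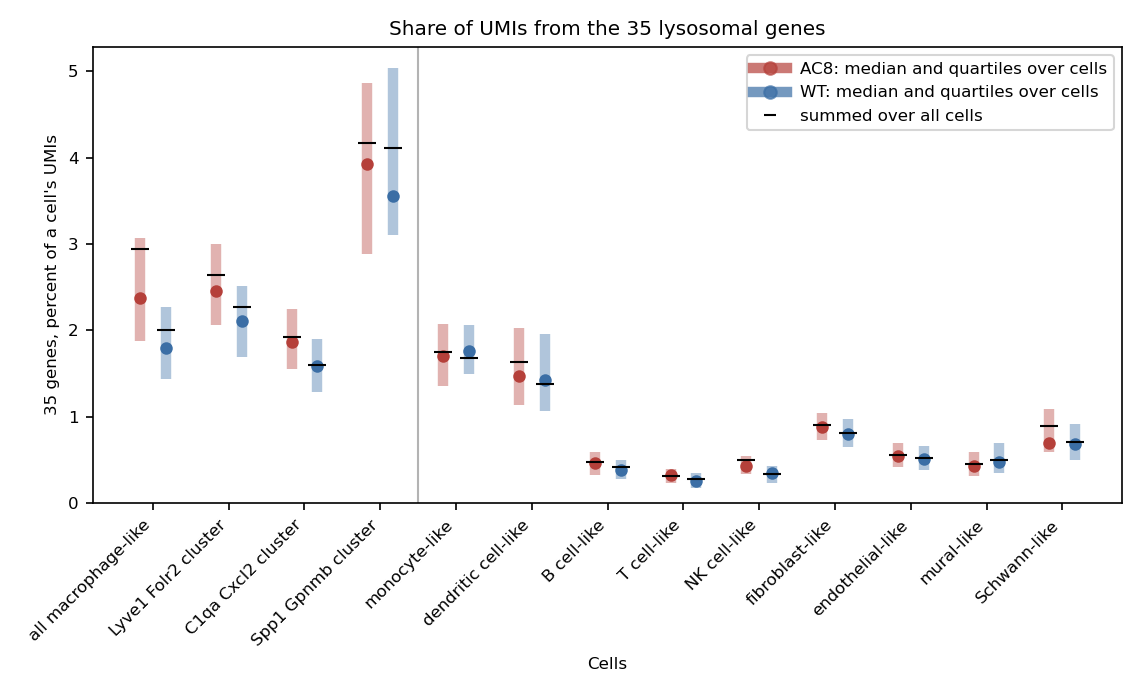
Percent of a cell's UMIs that came from the 35 genes, for AC8 (left of each pair) and WT; points are medians over cells, bars run between quartiles, and dashes give the summed share. Macrophage-like cells had summed shares of 2.94% in AC8 and 1.998% in WT, and within them the Spp1 and Gpnmb cluster stood at 4.17% and 4.11%.

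In macrophage-like cells 11 of the 34 genes with at least 30 UMIs were at least 1.5-fold higher in AC8 than in WT (log2 ratio with a pseudocount of 10 CPM) and 0 were at least 1.5-fold lower. Of all 8460 genes with that many UMIs in the class, 5.64% passed upward and 6.49% downward. The median log2 ratio was 0.38 over the module and −0.02 over all genes, and 31 of the 34 genes lay above 0, against 47.8% of all genes. Before any threshold, the interval of the ratio lay above 1 for 24 of the 35 genes, below 1 for 2 and across 1 for 9. Intervals were not counted over all genes, and abundant genes have narrow ones. No list of genes was tested.

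The papain-type cathepsins gave 4 of the 11. Together these 8 genes had 11605 CPM in AC8 and 7240 CPM in WT, a ratio of 1.603 (1.57 to 1.64). Ctsb (chromosome 14, 63122462 to 63145923, plus strand, GRCm38), an abundant endo- and dipeptidase, counted 14367 UMIs in AC8 and 3916 in WT, which are 5475 and 2908 CPM and a ratio of 1.88 (1.82 to 1.95). Ctsz, a carboxypeptidase, was 1.88-fold higher (892 and 474 CPM), and Ctss and Ctsl were each 1.65-fold higher. Ctsc (1769 and 1570 CPM) and Ctsh, an aminopeptidase (664 and 558 CPM), differed by less than 1.2-fold, and Ctsf was the lowest of the module relative to WT, at 49.5 and 64.6 CPM with an interval of the ratio from 0.580 to 1.02. The genes of this structural family did not share one ratio. Exons of Fdft1 overlap those of Ctsb, and exons of Nelfcd those of Ctsz, on the opposite strand, and the sources used here do not say whether the counting used strand.

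Ctsd, the aspartic protease cathepsin D (chromosome 7, 142375911 to 142388038, minus strand), had the largest ratio of the genes with over 30 UMIs in each library. It had 3131 UMIs in AC8 and 418 in WT macrophage-like cells, or 1193 CPM in AC8 and 310 CPM in WT, a ratio of 3.84 (3.47 to 4.27). Its exons overlap the annotated gene Gm49369 on the same strand. The other non-papain proteases differed less: Lgmn stood at 861 and 645 CPM (1.34, 1.23 to 1.45), Ctsa at 650 and 493 CPM, and Tpp1, a tripeptidyl peptidase, at 140 and 113 CPM.

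Of the 8 lipid and sugar hydrolases and their helpers, 2 passed the threshold. Psap, the precursor of the saposins that present sphingolipids to their hydrolases (chromosome 10, 60277627 to 60302597, plus strand), stood at 3648 CPM in AC8 and 2167 CPM in WT, a ratio of 1.68 (1.62 to 1.76). Lipa, lysosomal acid lipase, stood at 301 and 190 CPM (1.58, 1.37 to 1.83). Hexa, a chain of beta-hexosaminidase, was 1.37-fold and Grn, the progranulin gene, 1.24-fold higher, both under the threshold. Asah1, acid ceramidase, was equal in the libraries, at 323 and 322 CPM.

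The 10 membrane and lipid transport genes had the smallest summed ratio of the groups, 1.20 (1.17 to 1.23). Cd68 (chromosome 11, 69664213 to 69666153, minus strand) stood at 859 and 493 CPM (1.74, 1.597 to 1.90) and Cd63 at 661 and 427 CPM (1.55, 1.41 to 1.70). The structural glycoproteins of the lysosomal membrane went different ways within a narrow range: Lamp1 was 1.22-fold higher (1454 and 1187 CPM), while Lamp2 had a ratio of 0.900 (538 and 599 CPM), whose interval lay below 1, as did that of Laptm4a (498 and 557 CPM). Npc2, the soluble cholesterol carrier, stood at 1099 and 848 CPM, whereas its membrane partner Npc1 stood at 40.4 and 38.6 CPM with an interval that spans 1.

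Of the 5 pump subunits, 2 passed, both of the membrane sector's d type. Atp6v0d1, the widely expressed form, stood at 223 and 135 CPM (1.65, 1.39 to 1.96). Atp6v0d2, the restricted form (chromosome 4, 19876841 to 19922605, minus strand), stood at 15.6 and 2.23 CPM, a ratio of 7.01 whose interval runs from 2.24 to 35.4 because WT held 3 UMIs. Atp6v0c, the proton-carrying ring subunit, was 1.47-fold higher, and Atp6v1a, the catalytic subunit, did not stand apart (133 and 131 CPM). Of the 6 genes with TCACGTGA in the promoter window, Ctsd and Atp6v0d1 passed in macrophage-like cells. So did 7 of the 23 genes whose windows lack it and 2 of the 6 genes with no window.

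**Figure D3:**
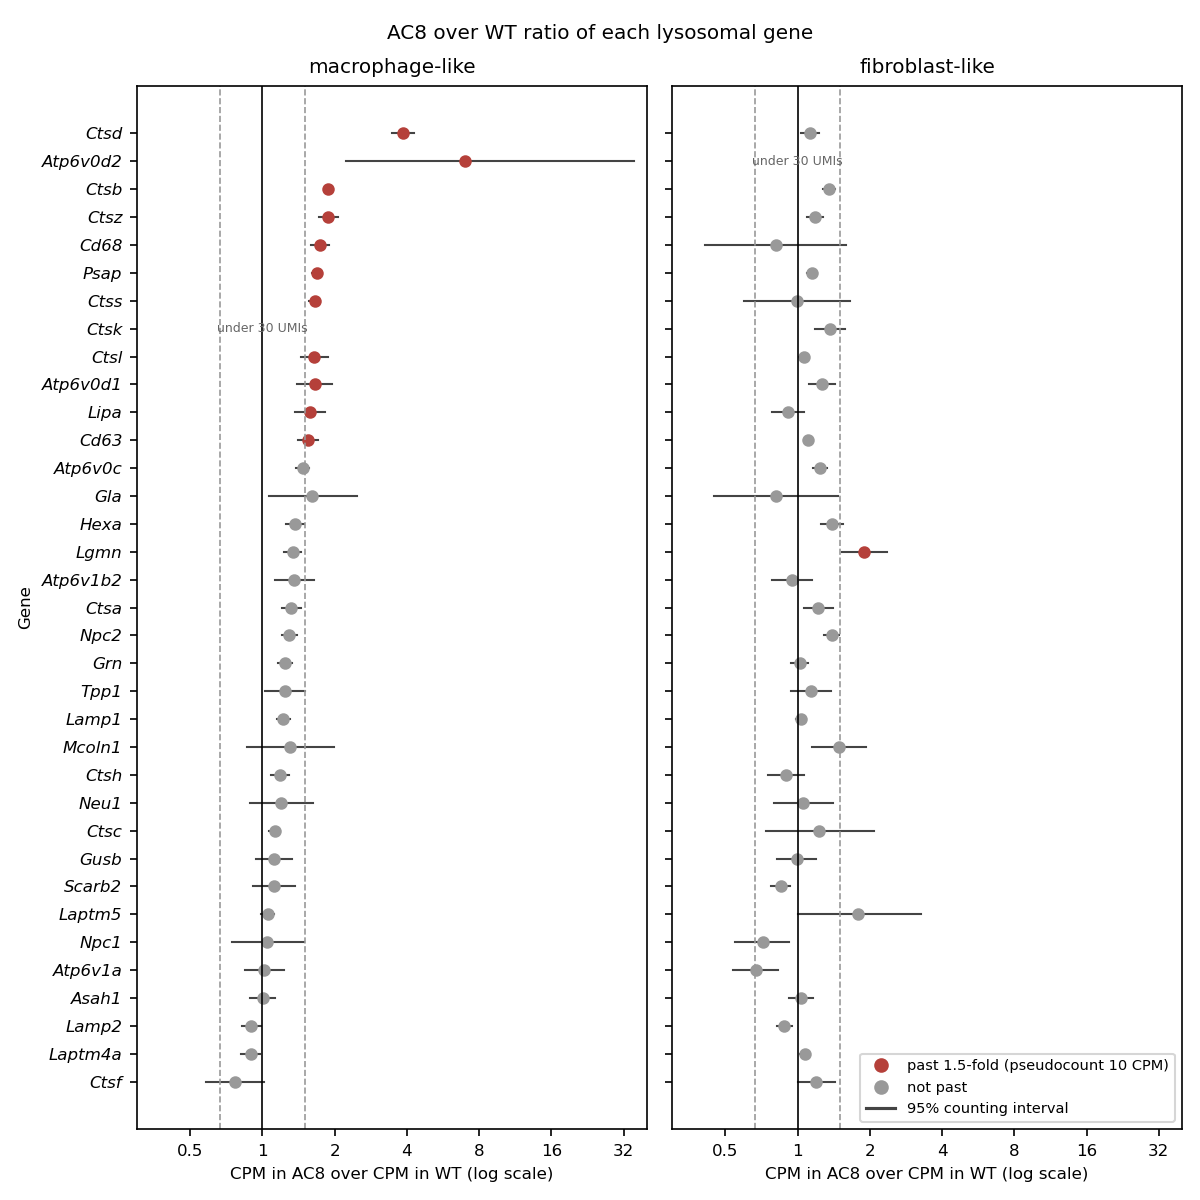
CPM in AC8 over CPM in WT for each gene in macrophage-like (left) and fibroblast-like cells (right), on logarithmic axes with 95% counting intervals; red points are at least 1.5-fold apart with a pseudocount of 10 CPM. In macrophage-like cells 11 genes are red, with Ctsd at 3.84 and Atp6v0d2 at 7.01, and in fibroblast-like cells only Lgmn is red, at 1.89.

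Several other measures moved with these ratios. AC8 macrophage-like cells were deeper, with a median of 3207 UMIs against 1998 in WT. Genes induced by tissue dissociation took 5.45% of their UMIs, against 6.48% in WT, mitochondrially encoded genes 1.61% against 2.02%, and ribosomal protein genes 10.2% against 11.3%. The 8 macrophage markers summed to 16758 and 16095 CPM, all 8 detected. The 6 neutrophil markers summed to 113 and 531 CPM, hemoglobin genes to 4.95 and 186 CPM, and the 6 monocyte markers to 163 and 100 CPM. With cells of the same classes thinned to 1000 UMIs the ratio of the module's share was 1.41. The part of depth and of the other measures in the result was not tested.

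Macrophage-like cells fell into 3 clusters. The cluster led by F13a1, Cbr2, Lyve1 and Folr2, markers of resident heart macrophages, held 360 AC8 and 264 WT cells. The cluster led by C1qa, C1qc and Cxcl2, without Lyve1, held 223 and 310. The cluster led by Spp1, Cxcl2, Lgals3, Trem2 and Gpnmb held 137 AC8 and 7 WT cells. All of these but Cxcl2 are genes known from lipid-associated macrophages. The cluster names are labels only: Cxcl2 leads this last cluster too, and C1qa and C1qc are also among the leading genes of the Lyve1 and Folr2 cluster. Cd68 was itself among the leading genes of the last cluster, so clusters were also made with all 35 genes left out. A Spp1 and Gpnmb cluster then held 89 of 720 AC8 (12.4%, exact interval 10.0 to 14.99) and 5 of 583 WT macrophage-like cells (0.858%, 0.279 to 1.99), and 86 of the original 144 cells were in it. The module's share of UMIs in this smaller cluster was 4.41% in AC8 and 4.30% in WT.

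Levels between these clusters are a description, since the cells were clustered on their expression. Within AC8, 16 of the 35 genes were at least 1.5-fold higher in the Spp1 and Gpnmb cluster than in the Lyve1 and Folr2 cluster and 4 at least 1.5-fold lower, with a median ratio of 1.41. Against the C1qa and Cxcl2 cluster the counts were 25 and 2, with a median ratio of 1.92. These ratios carried no pseudocount and no minimum of UMIs, so Ctsk, with 15 UMIs in the Spp1 and Gpnmb cluster, was counted too. The same counts over all genes were not made. Ctsd had 2867 CPM in the Spp1 and Gpnmb cluster, 603 CPM in the Lyve1 and Folr2 cluster and 196 CPM in the C1qa and Cxcl2 cluster of AC8. Ctsb stood at 8184, 5275 and 2342 CPM in the same order of clusters. For Psap the same clusters had 6811, 2200 and 2433 CPM, and for Ctss 3998, 1458 and 2086 CPM. Gla, alpha-galactosidase A, reached 73.1 CPM, against 28.6 and 6.58 CPM. The 137 cells of the Spp1 and Gpnmb cluster contributed 30.2% of the UMIs of all AC8 macrophage-like cells, 42.9% of the module's UMIs, 72.7% (71.1 to 74.2) of those of Ctsd and 38 of the 41 of Atp6v0d2.

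Not every gene of the module peaked in that cluster. Ctsc stood at 921 CPM there, against 2451 CPM in the Lyve1 and Folr2 cluster and 1504 CPM in the C1qa and Cxcl2 cluster of AC8, and Ctsf at 12.6 CPM, against 72.0 and 52.6 CPM. Lamp2 (383, 743 and 330 CPM) and Laptm4a (350, 637 and 411 CPM) were highest in the Lyve1 and Folr2 cluster. Between the 137 AC8 and the 7 WT cells of the Spp1 and Gpnmb cluster, the module's share had a ratio of 1.01 (0.964 to 1.07). Ctsd stood there at 2867 CPM in AC8 and 3067 CPM in WT and Ctsb at 8184 and 8406 CPM, with intervals of the ratio that span 1. The interval lay above 1 for Cd68, at 1528 CPM in AC8 and 739 CPM in WT (2.07, 1.41 to 3.15), and for Ctss (1.28, 1.06 to 1.56). It lay below 1 for Laptm4a (0.556, 0.363 to 0.892), Cd63 (0.742, 0.565 to 0.993) and Lamp1 (0.774, 0.612 to 0.992). The WT values come from 7 cells, with 27 UMIs of Cd68.

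**Figure D4:**
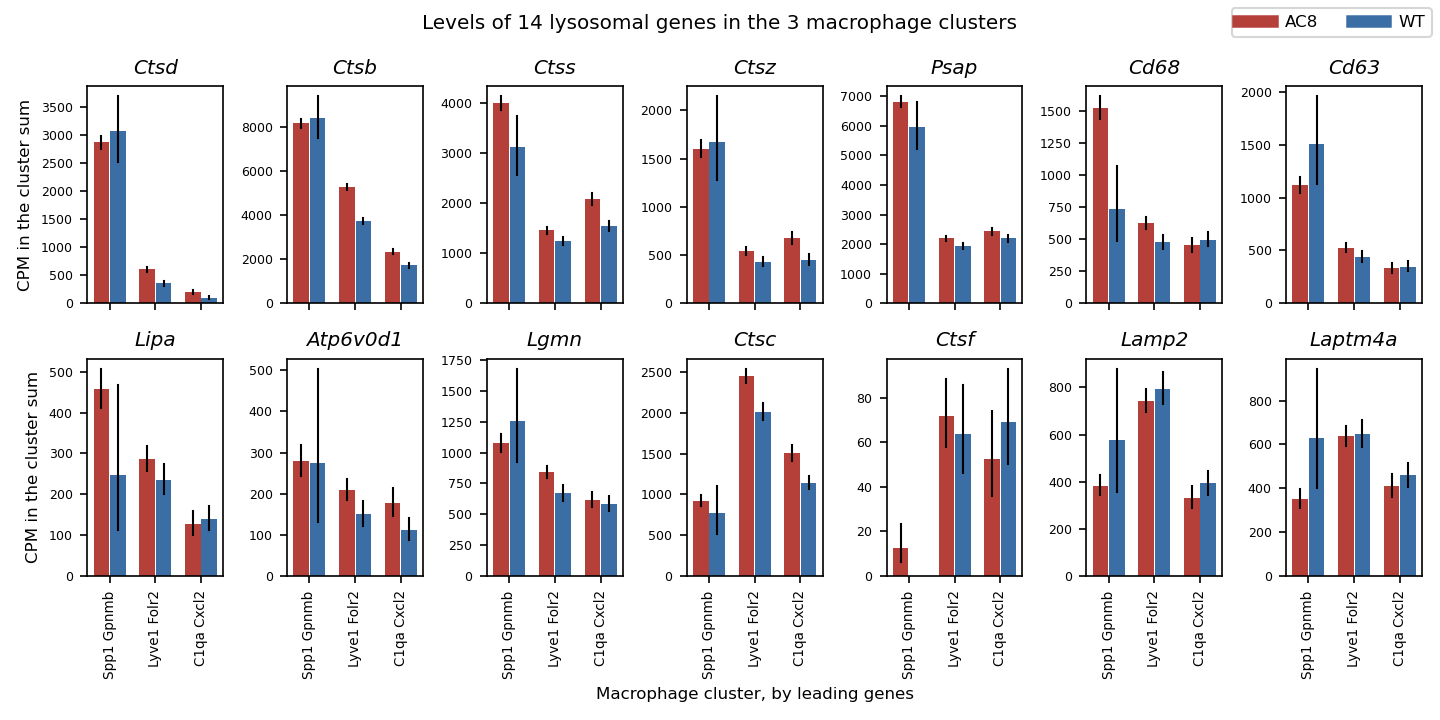
CPM of 14 genes in the 3 macrophage clusters, AC8 (red) left of WT (blue); bars start at 0 and lines are exact 95% Poisson intervals. Among the AC8 bars, Ctsd, Ctsb, Ctss, Ctsz, Psap, Cd68, Cd63, Lipa, Atp6v0d1 and Lgmn are tallest in the Spp1 and Gpnmb cluster, and Ctsc, Ctsf, Lamp2 and Laptm4a in the Lyve1 and Folr2 cluster.

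Because the libraries differed in cluster makeup, the comparison was repeated with the makeup held. The clusters used were made with the module's genes left in, so they were not independent of the genes compared. The calls given here and in the next paragraph were not repeated on clusters made without these genes. Within the Lyve1 and Folr2 cluster 1 of 33 genes was at least 1.5-fold higher in AC8 (5.01% of all genes there) and 0 were lower (7.98% of all genes), with a median log2 ratio of 0.11. It was Ctsd, at 603 CPM in AC8 and 357 CPM in WT (1.69, 1.46 to 1.96). Ctsb had a ratio of 1.42 (1.35 to 1.48) there, and Atp6v1a was the gene whose interval lay below 1 (128 and 172 CPM). Within the C1qa and Cxcl2 cluster 3 of 32 genes were higher (8.76% of all genes) and 0 lower (10.2%), with a median log2 ratio of 0.23. These were Ctsd (196 and 102 CPM), Atp6v0d1 (178 and 112 CPM) and Mcoln1, a lysosomal calcium channel, with 21 and 12 UMIs and an interval that spans 1. With these clusters, both shares of called genes lie near those of all genes. The median log2 ratio of all genes was −0.04 in the Lyve1 and Folr2 cluster and 0.01 in the C1qa and Cxcl2 cluster. In the Lyve1 and Folr2 cluster the interval of the ratio lay above 1 for 16 of the 33 genes and below 1 for 1. In the C1qa and Cxcl2 cluster it lay above 1 for 13 of the 32 genes and below 1 for 0. Intervals of all genes were not counted. In the clusters made without the module's genes, 54 of the original 144 Spp1 and Gpnmb cells lay in the C1qa and Cxcl2 cluster. The module's share there was 2.36% in AC8 and 1.61% in WT, against 1.92% and 1.59% with the genes left in. Ctsd stood there at 628 and 124 CPM and Ctsb at 3398 and 1730 CPM. Ctsf, Lamp2, Laptm4a and Npc1 were lower in AC8. In the Lyve1 and Folr2 cluster the share was then 2.68% and 2.26%.

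With the Spp1 and Gpnmb cluster left out, 2 of 33 genes remained at least 1.5-fold higher in macrophage-like cells (3.62% of all genes) and 0 lower (3.71%). These were Ctsd, at 468 CPM in AC8 and 234 CPM in WT (2.002, 1.75 to 2.29), and Ctsb, at 4301 and 2755 CPM (1.56, 1.501 to 1.62). The median log2 ratio was 0.22, the interval of the ratio lay above 1 for 21 of the 33 genes and below 1 for none, and the module's share was 1.24 times as high in AC8. Intervals of all genes were not counted here either. Some genes changed side: Lamp2 and Laptm4a came to log2 ratios of 0.02 each, against −0.15 and −0.16 as observed, and Atp6v1a, Npc1, Atp6v1b2 and Gla came to −0.23, −0.19, −0.06 and −0.0033, against 0.03, 0.05, 0.41 and 0.51. When AC8 levels were instead weighted by the WT cluster makeup, 1 of 34 genes was higher (3.37% of all genes) and 0 lower (4.81%), with a median of 0.16. The gene was Ctsd, which came to a log2 ratio of 0.59, just past the threshold, against 1.91 as observed. Atp6v0d1 and Ctsb came next with 0.51 and 0.45. Psap, Cd68 and Cd63 came to log2 ratios of 0.17, 0.20 and 0.08, against 0.75, 0.79 and 0.62 as observed. Atp6v1a, Npc1, Atp6v1b2 and Gla lay below 0 there too, with Gusb and Asah1 at −0.03 and −0.02.

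**Figure D5:**
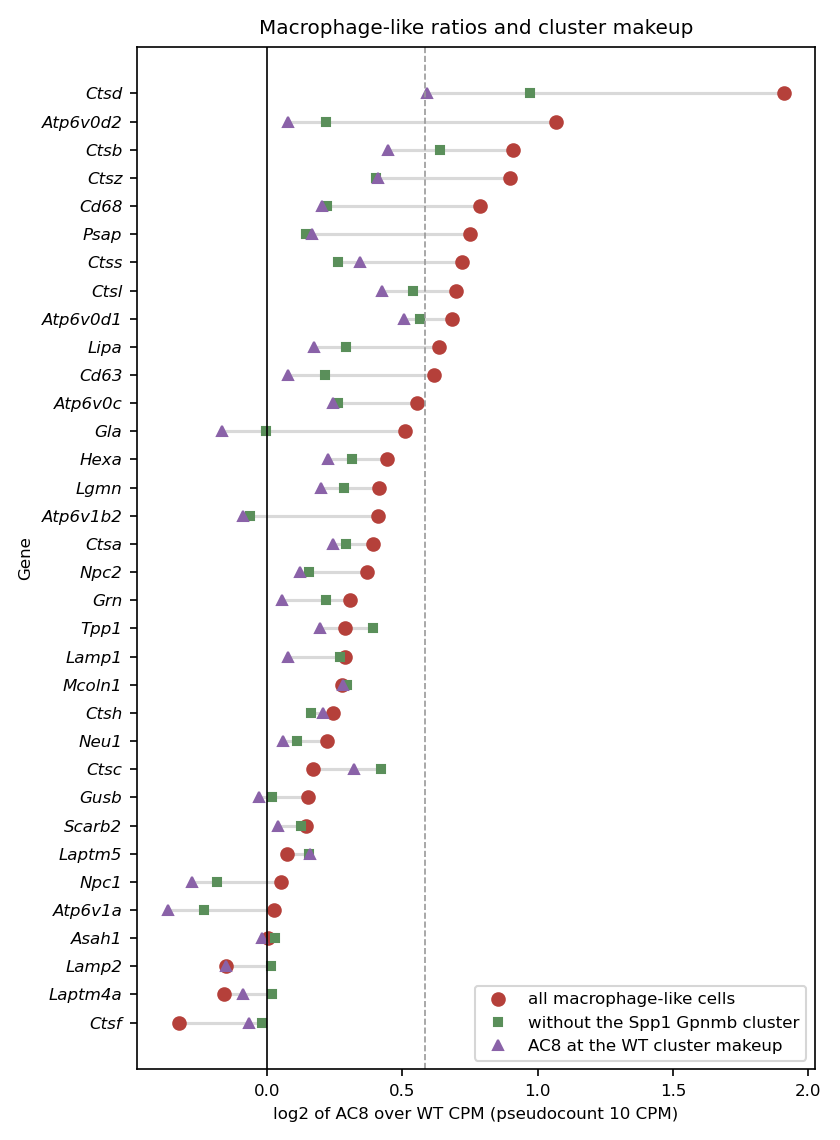
Log2 ratio of AC8 over WT for each gene in macrophage-like cells as observed (circles), without the Spp1 and Gpnmb cluster (squares) and with AC8 cluster levels weighted by the WT makeup (triangles); the dashed line marks 1.5-fold. Of the 11 genes right of the line as observed, Ctsd and Ctsb stay right of it without the cluster. Ctsd alone does so at the WT makeup. Ctsd is at 1.91 as observed, at 0.97 without the cluster and at 0.59, just past the line, at the WT makeup.

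In fibroblast-like cells the module differed little. Of the 34 genes with 30 UMIs, 1 was at least 1.5-fold higher in AC8 (0.857% of all genes) and 0 were lower (2.92%), with a median log2 ratio of 0.11 against −0.05 over all genes. The gene was Lgmn, with 251 and 132 UMIs, or 57.1 and 30.2 CPM (1.89, 1.53 to 2.35). This level is 6.62% of that in AC8 macrophage-like cells. The 8 macrophage markers summed to 61.4 CPM in AC8 and 50.8 CPM in WT fibroblast-like cells, against 16758 and 16095 CPM in macrophage-like cells. Thinned to 1000 UMIs, 5.15% of AC8 and 2.84% of WT fibroblast-like cells had Lgmn, against 0.651% and 0.579% for Cd68. The ratio was above 1 in 5 of the 6 fibroblast-like clusters, with an interval clear of 1 in 2 of them.

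Smaller differences in fibroblast-like cells were counted well. The interval lay above 1 for 17 genes and below 1 for 4, a count that was not made for all genes. Ctsb (640 and 475 CPM, 1.35-fold) was higher in all 6 clusters with each interval above 1, Npc2 (420 and 302 CPM) and Hexa (207 and 149 CPM) were each 1.39-fold higher, and Ctsk had a ratio of 1.36 (1.18 to 1.58). The 4 below 1 were Atp6v1a (34.1 and 51.0 CPM, 0.669), Npc1 (23.9 and 33.4 CPM, 0.715), Scarb2 (194 and 228 CPM) and Lamp2 (329 and 373 CPM). Ctsd, with its ratio of 3.84 in macrophage-like cells, stood at 238 and 211 CPM here. Dissociation-induced genes took 4.11% of UMIs in AC8 and 4.79% in WT fibroblast-like cells, and their part in these values was not tested.

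In endothelial-like cells 0 of 28 genes were at least 1.5-fold higher (4.21% of all genes) and 1 was lower (5.53%). It was Atp6v1a, with 43 and 71 UMIs, or 47.7 CPM in AC8 and 76.8 CPM in WT (0.621, 0.415 to 0.920), and it no longer passed when each cell was weighted equally, when genes were scaled by the median of ratios or when all deposited cells were used. Atp6v0d1 (145 and 98.4 CPM) and Ctsd (194 and 133 CPM) had ratios of 1.48 and 1.46 with intervals above 1, but with at least 2000 UMIs per cell the log2 ratio of Ctsd was −0.18, against 0.51 with the filter used here. Mural markers summed to 230 CPM in AC8 and 658 CPM in WT endothelial-like cells, hemoglobin genes to 695 and 2484 CPM, and dissociation-induced genes to 4.22% and 3.71% of UMIs, and their part was not tested.

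In B cell-like cells 3 of 19 genes were at least 1.5-fold higher (9.56% of all genes) and 0 lower (11.9%). All 3 are papain-type cathepsins. Ctsh stood at 360 CPM in AC8 and 199 CPM in WT (1.81, 1.22 to 2.77; 137 and 31 UMIs), Ctss at 602 and 365 CPM (1.65, 1.23 to 2.24) and Ctsc at 174 and 109 CPM with an interval that spans 1. Macrophage markers summed to 189 CPM in AC8 and 51.3 CPM in WT B cell-like cells, a ratio of 3.69 (1.78 to 8.88), with Fcgr1 at 0 in both libraries, and against 16758 and 16095 CPM in macrophage-like cells. Dendritic cell markers summed to 2164 and 1448 CPM with 4 of 7 at 0 in both libraries, endothelial markers to 229 and 1454 CPM, and dissociation-induced genes to 2.07% and 1.66% of UMIs. Ctss in AC8 B cell-like cells was 25.4% of its macrophage-like level. The part of these measures in the ratios was not tested.

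The small classes gave wider intervals. In dendritic cell-like cells Cd63 stood at 266 CPM in AC8 and 103 CPM in WT (2.59, 1.70 to 4.07), Atp6v0d1 at 194 and 87.0 CPM (2.23, 1.41 to 3.69), Ctsd at 243 and 142 CPM (1.70, 1.18 to 2.52) and Ctsz at 771 and 498 CPM (1.55, 1.27 to 1.90), while Tpp1 (59.5 and 35.6 CPM) and Atp6v1a (40.7 and 71.2 CPM) had intervals that span 1. These cells also held C1qa, at 1310 CPM in AC8 and 1377 CPM in WT. In monocyte-like cells Hexa counted 63 UMIs in 70 AC8 cells and 8 UMIs in 35 WT cells, a ratio of 3.69 (1.76 to 8.92), and Atp6v0c stood at 934 and 554 CPM. Under the minimum of 30 UMIs, Ctsd lay the other way in monocyte-like cells, with 12 UMIs in AC8 and 15 in WT (0.375, 0.160 to 0.858), as did Atp6v1a with 4 and 9 UMIs (0.208, 0.0469 to 0.746). In natural killer cell-like cells Atp6v0c stood at 483 and 170 CPM (2.85, 1.68 to 5.05) and Laptm5 at 1173 and 768 CPM. Ctsl stood at 921 and 507 CPM in Schwann-like cells (1.82, 1.05 to 3.19), and Lamp2 at 116 and 213 CPM in mural-like cells with an interval that spans 1. Apart from the genes under 30 UMIs, these were picked out by size from classes of few cells.

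The rest of the lysosomal machinery was read from lists of genes outside the module. Its counts in macrophage-like cells stand against 5.64% of all genes higher and 6.49% lower. They are values of the whole class, in which the Spp1 and Gpnmb cluster gave 30.2% of UMIs in AC8 and 2.71% in WT. Neither these lists nor the inhibitors below were recomputed without that cluster. Of the other pump subunits 3 of 13 were at least 1.5-fold higher and 0 lower, with all 13 above 0 and a median log2 ratio of 0.32. Atp6v1g1 stood at 304 CPM in AC8 and 172 CPM in WT, Atp6v0e at 370 and 226 CPM and Atp6v1c1 at 119 and 72.8 CPM. Of 32 other hydrolases, 2 were higher and 2 lower, with a median of 0.17. Acp5, tartrate-resistant acid phosphatase, was 3.55-fold higher (63.3 and 17.8 CPM), Naglu was 2.22-fold higher, and the sulfatases Arsb (42.7 and 85.4 CPM) and Ids (25.5 and 49.0 CPM) had ratios of 0.4998 and 0.521. Of 28 other membrane and transport genes, 3 were higher and 0 lower, with a median of 0.16: Gpnmb (267 and 19.3 CPM), which leads the Spp1 and Gpnmb cluster, the tetraspanin Cd9 (483 and 130 CPM) and Lamtor1 (152 and 91.3 CPM). The sorting receptors and regulators had 0 of 16 past the threshold in either direction and a median of 0.17.

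Inhibitors of the cathepsins differed by class. In macrophage-like cells Cstb, the intracellular inhibitor stefin B, stood at 625 CPM in AC8 and 226 CPM in WT (2.77, 2.45 to 3.14), while Cst3, the secreted cystatin C, stood at 4046 and 4470 CPM. The inhibitors summed to 4965 CPM in AC8 and 4929 CPM in WT macrophage-like cells, a ratio of 1.01 (0.978 to 1.04). In fibroblast-like cells Cst3 was 1.57-fold higher (4920 and 3134 CPM) and Cst6 2.54-fold higher (40.003 and 15.8 CPM). The inhibitors summed to 5781 and 3802 CPM in that class. Cathepsins of the papain type summed to 2379 CPM in AC8 and 2065 CPM in WT fibroblast-like cells.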

How the data were processed

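Counts were deposited by the authors as unnormalised UMIs per gene and cell for each library, made with Cell Ranger on mm10, per the submitters' processing notes. The cell barcodes are running numbers, so barcodes shared by the libraries could not be counted. The members and the other gene lists were chosen with earlier results of these data known. Cells with at least 1000 UMIs, 500 genes and at most 10% mitochondrial UMIs were kept, and the top-scoring cells by similarity to simulated doublets were removed (0.8% per 1000 cells). Clustering used 2000 variable genes, 30 principal components, 15 neighbours and the Leiden algorithm (leidenalg 0.10.2, resolution 1, seed 1) in Python 3.11.15 with numpy 2.4.6, scipy 1.17.1, scikit-learn 1.9.0 and igraph 0.11.9. Clusters were named from fixed markers with at least 3 detected in 10% of cells, a rule set after the clusters were seen. UMIs were summed per class and library and divided by the class total. A gene was called at 1.5-fold with a pseudocount of 10 CPM and at least 30 UMIs over both libraries. Genes were named in full when they passed in a class at 20% or more of their highest class. Where a count was 5 or fewer, its members were also named. Intervals are exact Poisson and Clopper-Pearson intervals, and a count of 0 allows 3 counts. The call was run on simulated counts with known fold changes, none of them at the threshold of 1.5-fold. The simulated counts held counting error only, so they do not check the calls against variation between animals, libraries or cells. Alternatives were other cell filters, no doublet removal, a finer resolution, clustering without the members, other pseudocounts, minimums, scalings and thresholds, thinning, and leaving out the Spp1 and Gpnmb cluster. Values within clusters and at the WT makeup were added after seeing the data.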

Additional observations from a re-analysis of the deposited data

How the results depend on the processing

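Of 164 recomputed medians, share ratios and counts, 129 stayed within the margins set for them, and no median or share ratio changed direction. Under other filters, clusterings, pseudocount, scaling and thinning, the log2 ratios of single genes did in 4 of 34 genes of macrophage-like, 9 of 34 of fibroblast-like, 14 of 28 of endothelial-like and 10 of 19 of B cell-like cells, none of them among those past the threshold, with Ctsd in endothelial-like cells from −0.18 to 0.54. In macrophage-like cells, where 11 genes were higher, the count was 7 with cells weighted equally, 2 at a 2-fold threshold, 2 without the Spp1 and Gpnmb cluster, 1 within the Lyve1 and Folr2 cluster and 3 within the C1qa and Cxcl2 cluster. The median log2 ratio of 0.38 was 0.22 without the Spp1 and Gpnmb cluster and 0.11 within the Lyve1 and Folr2 cluster. The ratio of the module's share of UMIs, 1.47, was 1.49 with all deposited cells, 1.42 with at least 2000 UMIs per cell, 1.39 with cells weighted equally, 1.41 after thinning, 1.24 without the Spp1 and Gpnmb cluster, and 1.17 and 1.20 within the Lyve1 and Folr2 and the C1qa and Cxcl2 clusters. In fibroblast-like cells the count of 1 higher gene was 2 without doublet removal, 2 with a pseudocount of 1 CPM and 0 at 2-fold, and the share ratio was 1.09 with cells weighted equally. In endothelial-like cells the count of 0 higher genes was 1 with all deposited cells, with at least 2000 UMIs, without doublet removal and with a pseudocount of 1 CPM, and 2 after thinning and with no minimum, while the count of 1 lower gene was 0 with all deposited cells, without doublet removal, with the members left out of clustering, with median-of-ratios scaling, with cells weighted equally and at 2-fold. In B cell-like cells the count of 3 higher genes was 5 with no minimum and 0 at 2-fold, and the count of 0 lower genes was 1 without doublet removal and after thinning and 3 with no minimum. With at least 2000 UMIs no B cell-like class was found. The values within macrophage clusters and without the Spp1 and Gpnmb cluster rest on clusters made with the module's genes left in. The causes were not tested. No library could be left out and no paired analysis was possible because each genotype has 1 library. Genes under about 30 UMIs in a class, such as Ctsk in macrophage-like cells, could not be compared at this depth.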
